A study of Rattus norvegicus with 10 samples.

Results

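The 10 genes described here encode receptors, and the enzymes closest to them, that set how strongly the colonic epithelium secretes chloride and water: the nucleotide receptors P2ry2, P2ry4 and P2ry6, the adenosine receptor Adora2b, the prostaglandin E receptors Ptger3 and Ptger4, the prostaglandin-inactivating enzyme Hpgd, the vasoactive intestinal peptide receptor Vipr1, the adenylate cyclase Adcy6 and the calcium-sensing receptor Casr. They were taken from the gene table by symbol, and all 10 were found among its 23422 genes. The table came from RNA sequencing of epithelial cells of the distal colon, loosened from the gut wall with EDTA and so a mixture of epithelial cell types, from male Wistar Munich rats. All animals spent 3 days in metabolic cages on plain chow. Then 6 of the 12 rats were given chow containing sodium cholate, a bile acid salt, at 1% w/w, while control rats stayed on plain chow for the same 10 days. The 5 rats per diet with the most concentrated RNA were sequenced, which was not a random choice: control rats 1, 2, 5, 6 and 9 and cholate rats 3, 4, 7, 8 and 11. Each library is 1 rat.

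Total counts ran from 14337356 to 45285762 per library. Control rat 9 and cholate rats 8 and 11 stood apart from the other libraries on the first principal component of all genes tested, which held 46.8% of the variance, with scores of 57.0 to 79.6 against -46.4 to 8.08 in the others. They were also the 3 smallest libraries. The summed level of 7 goblet cell markers was 17628 to 26558 CPM in these 3 rats and 7306 to 13234 CPM in the other libraries. CPM values are counts relative to the library size after scaling by the trimmed mean of M values (TMM). Results for the 10 genes are therefore given with and without these 3 rats, a choice made after the data were seen. Some results are also given without control rat 5, which had the next highest score, 8.08, but was not among the libraries that stood apart. That fit was not planned either, was chosen after the data were seen, and leaves 3 rats per diet.

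Water follows chloride into the gut lumen, and chloride leaves the epithelial cell through channels that open on a rise of cyclic AMP or of calcium. Vasoactive intestinal peptide, adenosine and prostaglandin E2 act through receptors coupled to stimulatory G proteins and adenylate cyclase, whereas ATP, UTP and UDP act through P2Y receptors that release calcium. Other receptors oppose this: EP3, the product of Ptger3, mostly lowers cyclic AMP, and the calcium-sensing receptor dampens secretion when luminal or serosal calcium is high. Bile acids that reach the colon are themselves known to provoke secretion, and the comparison asked how dietary cholate changed expression in these cells.

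None of the 10 genes met the authors' criteria, a more than 2-fold difference with an adjusted p under 0.01 (edgeR quasi-likelihood test, Benjamini-Hochberg adjustment over all genes). Of the 12385 genes tested, 3.21% met them, 1.1% higher and 2.12% lower on cholate. At the looser limit of an adjusted p under 0.05 at any fold, 3 of the 10 passed, against 13.8% of all genes: P2ry6 rose, and Ptger3 and Casr fell. "Rose" and "fell" are used below for this limit, and "called" for the authors' criteria. Groups that did not overlap between diets were found for 2 of the 10, P2ry6 and Ptger3, and for 13.1% of all genes, 6.3% higher and 6.8% lower. The median log2 fold change of cholate over control was -0.37 for the 10 genes and -0.01 for all genes tested, and 2 of the 10, P2ry2 and P2ry6, had positive values.

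**Figure D1:**
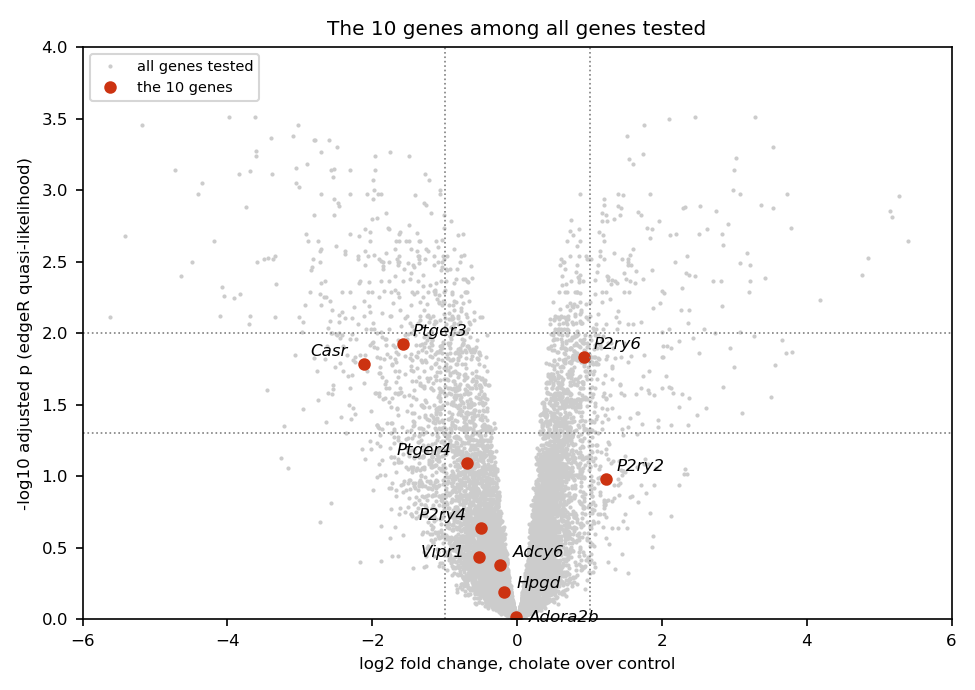
The 10 genes (red) among all genes tested (grey), with the log2 fold change of cholate over control on the x axis and -log10 of the adjusted p on the y axis. Dotted lines mark adjusted p values of 0.05 and 0.01 and a fold change of 2 in either direction, and 7 genes lie outside the axes. Ptger3, Casr and P2ry6 lie between the 2 horizontal lines.

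The genes spanned a wide range of levels. Per kilobase of coding sequence, control rats had 377.3 CPM for Hpgd, 46.5 for Adcy6, 33.2 for Adora2b, 25.7 for Vipr1, 21.2 for Ptger4, 6.06 for Ptger3, 5.92 for P2ry6, 1.96 for P2ry4, 1.09 for P2ry2 and 1.03 for Casr (means, n = 5). Hpgd stood above Adcy6, Ptger4 above Ptger3 and P2ry6 above P2ry4 in 5 of 5 control rats. Ptger3 exceeded P2ry6 in 2 of 5 and P2ry2 exceeded Casr in 3 of 5, so the order within these pairs did not hold across rats. On cholate P2ry6 stood at 11.2 and P2ry2 at 2.56, the latter above Ptger3 at 2.05 in 3 of 5 rats, and Casr came last at 0.24. The sources used here do not say whether reads outside the coding sequence were counted. Division by whole exon length exchanged only P2ry4 and P2ry2 in the control order. In CPM without any division by length, 5 of the 10 kept their control rank, with Ptger4 above Vipr1 and Casr above P2ry4 and P2ry2.

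The 3 P2Y receptors of the set differed among themselves. P2ry6, the receptor for UDP (Entrez 117264, rn6 chromosome 1, 165972439 to 166008348, minus strand, 1 coding exon block), measured 5.05, 4.67, 7.35, 5.2 and 6.97 CPM in control rats 1, 2, 5, 6 and 9. In cholate rats 3, 4, 7, 8 and 11 it measured 13.6, 12.1, 8.27, 9.45 and 11.8 CPM. Each cholate rat was above each control rat, the closest being cholate rat 7 and control rat 5. The mean went from 5.85 ± 1.22 to 11.04 ± 2.13 CPM (SD, n = 5 per diet). The log2 fold change was 0.92 (SE 0.21, adjusted p = 0.0147, edgeR quasi-likelihood test), short of the authors' limits on both fold and adjusted p. Without control rat 9 and cholate rats 8 and 11 it was 1.04 (SE 0.23, adjusted p = 0.0109), past the fold limit but not the limit on adjusted p.

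P2ry2, the receptor for ATP and UTP through which luminal nucleotides mobilise calcium (Entrez 29597, rn6 chromosome 1, 166031228 to 166045423, minus strand), lies next to P2ry6 on the same strand. The gap is 22879 bases, with no annotated gene between them. It was scarce, with 14 to 151 reads per library. Its levels were 1.89, 0.65, 1.34, 1.5 and 0.76 CPM in control rats 1, 2, 5, 6 and 9, and 5.58, 2.20, 3.91, 1.25 and 1.44 CPM in cholate rats 3, 4, 7, 8 and 11. Cholate rats 3, 4 and 7 were above all controls, while cholate rats 8 and 11, of the 3 libraries that stood apart, were within the control range. The log2 fold change was 1.23 (SE 0.46), and did not pass (adjusted p = 0.105). It was 1.54 (SE 0.40, adjusted p = 0.0209) without control rat 9 and cholate rats 8 and 11, a fit in which 29.4% of all genes passed at 0.05. Without cholate rat 3 it was 0.85.

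P2ry4, another of the nucleotide receptors (Entrez 63843, rn6 chromosome X, 70421599 to 70447109, minus strand), was also scarce, with 17 to 82 reads per library. Control rats had 1.65, 1.65, 2.83, 2.24 and 2.29 CPM and cholate rats 2.18, 1.48, 1.23, 1.31 and 1.29 CPM, in the same order of rats. The diets overlapped through cholate rat 3 alone, the log2 fold change was -0.50 (SE 0.26), and the test was not passed (adjusted p = 0.231). It was -0.35 without the 3 libraries that stood apart and -0.17 without control rat 5 as well. An untranslated exon of P2ry4 overlaps the antisense gene Arr3, but its coding sequence does not, and whether the counting used strand is not known.

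Within each library the 3 P2Y receptors of the set can be compared without any scaling between libraries. The sum leaves out P2ry1, a P2Y receptor that was not among the 10 genes. Its mean CPM was above those of the 3, at 23.5 ± 14.8 in controls and 13.5 ± 8.29 on cholate. Its log2 fold change was -0.79 (adjusted p = 0.433, edgeR quasi-likelihood test). The shares thus describe P2ry2, P2ry4 and P2ry6 only. P2ry4 made up 18.2%, 22.2%, 23.2%, 23.8% and 21.4% of their summed reads per coding kilobase in control rats 1, 2, 5, 6 and 9. In cholate rats 3, 4, 7, 8 and 11 it made up 9.69%, 8.76%, 8.73%, 10.2% and 8.21%. This share was thus 21.8% ± 2.18 in controls and 9.11% ± 0.80 on cholate (SD, n = 5), with every cholate rat below every control rat, including the 3 libraries that stood apart. The complement differed between rats: P2ry6 held 64.5% to 82.9% on cholate against 60.7% to 71.7% in controls, and P2ry2 8.86% to 26.7% against 6.88% to 20.2%. P2ry6 was most of the sum in each rat, so its rise by itself lowers the P2ry4 share. The separation of the P2ry4 share is thus not a result apart from that of P2ry6, and the P2ry4 level itself overlapped between diets. These shares were chosen for description after the levels were seen and carry no test, and the family sums rest on 182 to 767 reads per library.

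**Figure D2:**
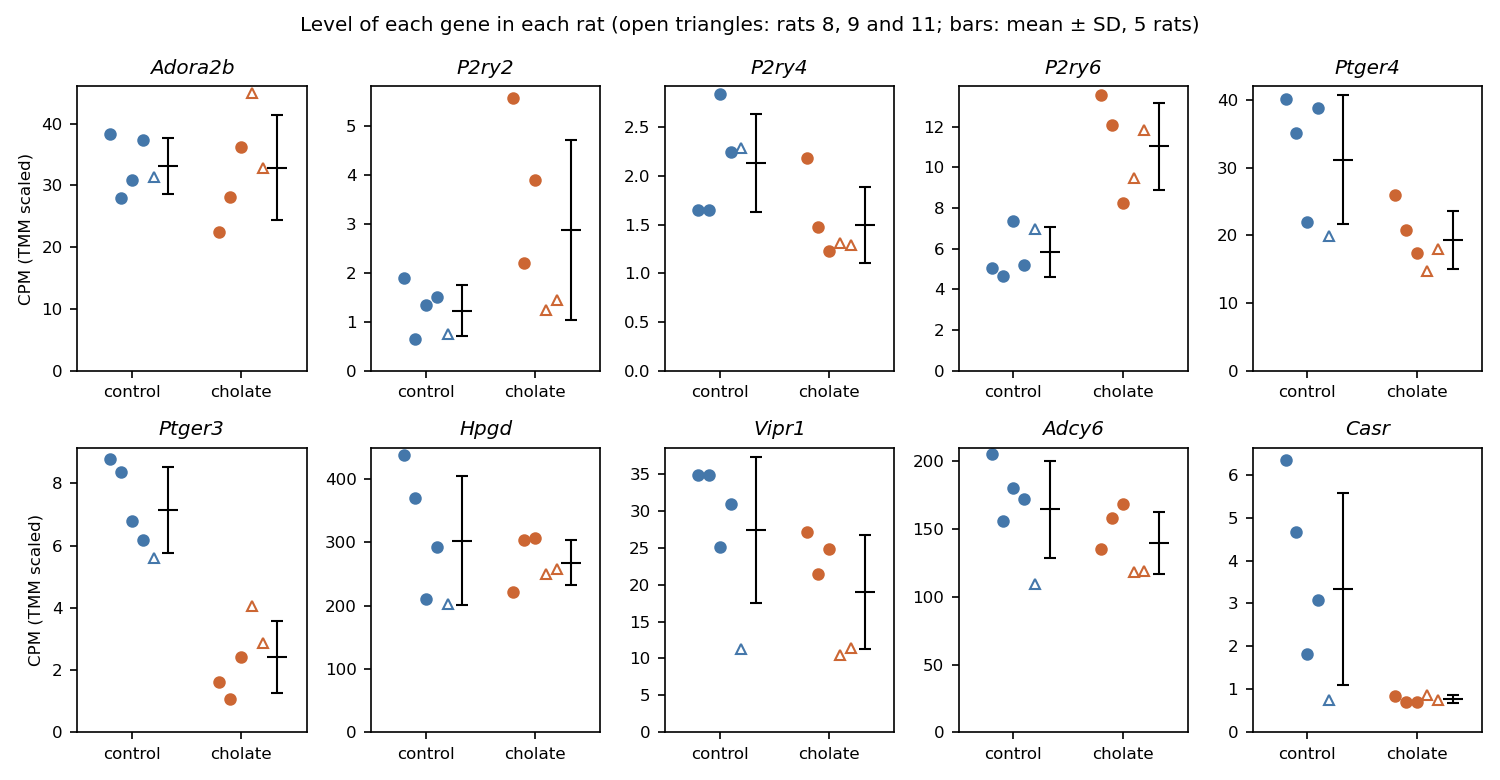
CPM of each gene in each rat, 1 panel per gene with its own y axis starting at 0, with control rats in blue and cholate rats in orange. Open triangles are control rat 9 and cholate rats 8 and 11, and black bars are the mean ± SD of 5 rats. P2ry6 and Ptger3 show no overlap between diets, and Vipr1 and Adcy6 are lowest in the 3 rats shown as triangles.

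Adora2b, the A2B adenosine receptor, which couples to cyclic AMP and chloride secretion (Entrez 29316, rn6 chromosome 10, 48569563 to 48586366, plus strand), had the highest mean per coding kilobase among the receptors of the set, above Vipr1 in 4 of 5 control rats. It measured 38.4, 27.9, 30.8, 37.4 and 31.3 CPM in control rats 1, 2, 5, 6 and 9. The cholate rats 3, 4, 7, 8 and 11 had 22.4, 28.1, 36.2, 44.9 and 32.8 CPM, a spread that enclosed the control range. The means were 33.2 ± 4.50 and 32.9 ± 8.5 CPM, and the log2 fold change was -0.01 (SE 0.19, adjusted p = 0.974). Its sign changed on leaving out single rats, between -0.14 and 0.10, and it was -0.19 without the 3 libraries that stood apart.

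The prostaglandin E receptors were both lower on average on cholate, and Ptger3 passed the test. Ptger3 encodes EP3 (Entrez 24929, rn6 chromosome 2, 263895093 to 263979682, plus strand, 4 coding exon blocks). It measured 8.77, 8.35, 6.79, 6.18 and 5.61 CPM in control rats 1, 2, 5, 6 and 9. Its levels in cholate rats 3, 4, 7, 8 and 11 were 1.62, 1.09, 2.44, 4.07 and 2.88 CPM. The lowest control, rat 9, was still above the highest cholate rat, rat 8. The mean fell from 7.14 ± 1.37 to 2.42 ± 1.16 CPM, a log2 fold change of -1.58 (SE 0.33, adjusted p = 0.0119), short of the authors' limit on adjusted p alone. It was called without control rat 9 (-1.69, adjusted p = 0.00943), without cholate rat 8 (-1.85, adjusted p = 0.00458), and without control rat 9 and cholate rats 8 and 11 (-2.11, SE 0.30, adjusted p = 0.00183), where 6.66% of all genes were called. Without control rat 5 as well, Ptger3, Casr and P2ry6 were called, against 7.93% of all genes, and 38.5% of all genes passed at 0.05. Ptger3 was called too by DESeq2, by limma-voom with and without quality weights and under scaling by library size alone.

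Ptger3 and Casr were the members that fell, and the sequences around their annotated starts are shown for that reason. Each is the 300-base window of the RefSeq promoter table on build GRCr8, which is not the build of the counts, with 250 bases before the start in lower case and the first 50 transcribed bases in capitals. Ptger3 lies at chr2:249264832-249265131 (plus strand) and Casr at chr11:77740364-77740663 (plus strand).
Ptger3: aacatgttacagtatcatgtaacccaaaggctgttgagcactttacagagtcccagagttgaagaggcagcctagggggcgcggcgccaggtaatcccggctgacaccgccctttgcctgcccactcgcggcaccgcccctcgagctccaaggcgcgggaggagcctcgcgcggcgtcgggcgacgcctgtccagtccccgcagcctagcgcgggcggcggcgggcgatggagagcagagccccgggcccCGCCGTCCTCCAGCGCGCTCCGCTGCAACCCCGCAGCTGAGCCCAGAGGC
Casr: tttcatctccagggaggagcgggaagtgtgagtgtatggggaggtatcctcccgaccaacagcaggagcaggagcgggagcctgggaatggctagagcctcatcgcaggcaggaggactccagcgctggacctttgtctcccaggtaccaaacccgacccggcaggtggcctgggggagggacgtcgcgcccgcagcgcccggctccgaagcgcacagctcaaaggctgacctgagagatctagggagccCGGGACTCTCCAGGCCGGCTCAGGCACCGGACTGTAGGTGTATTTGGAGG
The cyclic AMP response element TGACGTCA, searched on both strands, was in neither window, nor in that of any of the 8 members with an entry, and is in 1.83% of 33469 promoter windows. The transcribed part of the Ptger4 window begins with ATG. Its start may therefore be that of the coding sequence, and its window cannot show whether the Ptger4 promoter holds the element. Its short form TGACG, which the full element also contains, was in the windows of Vipr1 and Hpgd, 65 and 136 bases before the start, and is in 21.2% of all windows. The GC content of the windows was 69.7% for Ptger3 and 64.7% for Casr, with a median of 51.7% over all windows. It was higher for Vipr1 (73.3%), P2ry2 (73.0%) and Adora2b (72.0%), and lower for Hpgd (60.7%), P2ry4 (54.0%) and Ptger4 (50.3%). High GC content was thus not particular to the members that fell. P2ry6 and Adcy6 were not matched in this table.

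Ptger4 encodes EP4, the main cyclic AMP-raising prostaglandin E2 receptor of the intestinal epithelium (Entrez 84023, rn6 chromosome 2, 54951625 to 54966470, minus strand). Control rats 1, 2, 5, 6 and 9 had 40.1, 35.1, 22.0, 38.8 and 19.9 CPM. Cholate rats 3, 4, 7, 8 and 11 had 26.0, 20.8, 17.3, 14.8 and 18.0 CPM. Control rats 5 and 9 lay within the cholate range, the other controls above it. The log2 fold change was -0.69 (SE 0.24, adjusted p = 0.0812), and -0.65 (SE 0.22, adjusted p = 0.0535) without the 3 libraries that stood apart. Without control rat 9 alone Ptger4 passed at 0.05 (-0.81, adjusted p = 0.0358), where 17% of all genes did. It also passed without control rat 5 and those 3 libraries (-0.80, adjusted p = 0.00375), where 38.5% did. These fits leave out 1 or both of the controls that lay within the cholate range. With all rats Ptger4 passed by DESeq2 (adjusted p = 0.0468, 21.6% of all genes) and by limma-voom with quality weights (adjusted p = 0.00456, 37.2%).

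Ptger3 made up 21.4%, 22.9%, 27.8%, 16.6% and 26.0% of the summed Ptger3 and Ptger4 reads per coding kilobase in control rats 1, 2, 5, 6 and 9. On cholate the shares were 7.23%, 6.12%, 14.9%, 25.5% and 16.6% in rats 3, 4, 7, 8 and 11. Cholate rats 3, 4 and 7 were below every control, and rats 8 and 11 were not. The mean shares were 22.9% ± 4.36 and 14.1% ± 7.89 (SD, n = 5), again as a description chosen after the levels were seen.

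**Figure D3:**
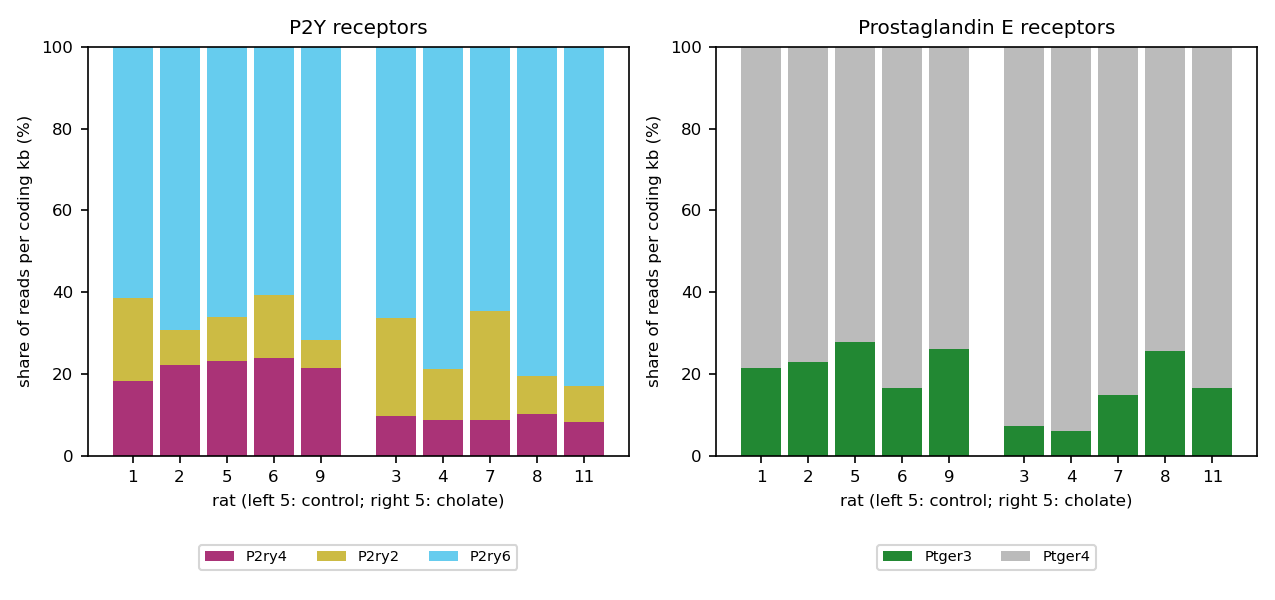
Share of reads per coding kilobase (percent, y axis) held by P2ry4, P2ry2 and P2ry6 of their sum (left) and by Ptger3 and Ptger4 of theirs (right), 1 bar per rat, controls on the left of each panel. The P2ry4 share is 18.2% to 23.8% in the 5 control rats and 8.21% to 10.2% in the 5 cholate rats.

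Hpgd, the dehydrogenase that inactivates prostaglandin E2 and is a marker of mature colonocytes (Entrez 79242, rn6 chromosome 16, 37457134 to 37495758, minus strand), was the most abundant of the 10. It measured 437.3, 368.8, 210.5, 292.7 and 201.9 CPM in control rats 1, 2, 5, 6 and 9. On cholate rats 3, 4, 7, 8 and 11 had 222.0, 302.6, 305.9, 249.8 and 258.0 CPM, all inside the control range. The log2 fold change was -0.18 (SE 0.22, adjusted p = 0.651), and -0.21 without the 3 libraries that stood apart. Single rats moved it, to -0.0055 without control rat 1 and to -0.28 and -0.30 without control rat 5 or 9. Its control spread, a coefficient of variation of 33.6%, was wider than its cholate spread of 13.4%, a difference that was not tested.

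Vipr1, the receptor for vasoactive intestinal peptide on epithelial cells (Entrez 24875, rn6 chromosome 8, 130283453 to 130313431, plus strand, 12 coding exon blocks), was lowest in the 3 libraries that stood apart. Control rats 1, 2, 5, 6 and 9 had 34.8, 34.8, 25.1, 30.9 and 11.3 CPM, and cholate rats 3, 4, 7, 8 and 11 had 27.1, 21.4, 24.8, 10.5 and 11.4 CPM. Those 3 libraries, from both diets, had 10.5 to 11.4 CPM, below each of the other 7. The log2 fold change was -0.52 (SE 0.35, adjusted p = 0.37), and -0.34 (SE 0.15, adjusted p = 0.112) without those 3 rats, where the standard error was smaller. Without control rat 5 as well Vipr1 passed at 0.05 (-0.43, adjusted p = 0.0199), in the fit where 38.5% of all genes did.

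Adcy6, an adenylate cyclase that makes cyclic AMP downstream of these receptors (Entrez 25289, rn6 chromosome 7, 140270678 to 140291722, minus strand), was also lowest in the 3 libraries that stood apart. Control rats 1, 2, 5, 6 and 9 had 205.4, 155.9, 180.4, 172.4 and 109.2 CPM. Cholate rats 3, 4, 7, 8 and 11 had 135.6, 157.9, 168.5, 118.6 and 118.7 CPM. The log2 fold change was -0.24 (SE 0.17, adjusted p = 0.42) with all rats and -0.19 (SE 0.12, adjusted p = 0.268) without those 3. It was -0.14 without control rat 1 and -0.36 without control rat 9.

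Casr, the calcium-sensing receptor (Entrez 24247, rn6 chromosome 11, 67188204 to 67262261, plus strand, 6 coding exon blocks), had the largest change of the 10 and a low level. It measured 6.35, 4.67, 1.83, 3.09 and 0.76 CPM in control rats 1, 2, 5, 6 and 9, from 181, 122, 49, 113 and 14 reads. The levels of cholate rats 3, 4, 7, 8 and 11 were 0.85, 0.70, 0.70, 0.88 and 0.76 CPM, from 10 to 34 reads. The cholate rats were close together, the controls were widely spread, and control rat 9 lay inside the cholate range while the other controls lay above it. The mean fell from 3.34 ± 2.23 to 0.78 ± 0.08 CPM, a log2 fold change of -2.11 (SE 0.49, adjusted p = 0.0165). It was called without control rat 9 (-2.37, adjusted p = 0.00332) and without control rat 9 and cholate rats 8 and 11 (-2.39, SE 0.43, adjusted p = 0.00463). Without control rat 1, the highest, the log2 fold change was -1.75 (adjusted p = 0.045).

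**Figure D4:**
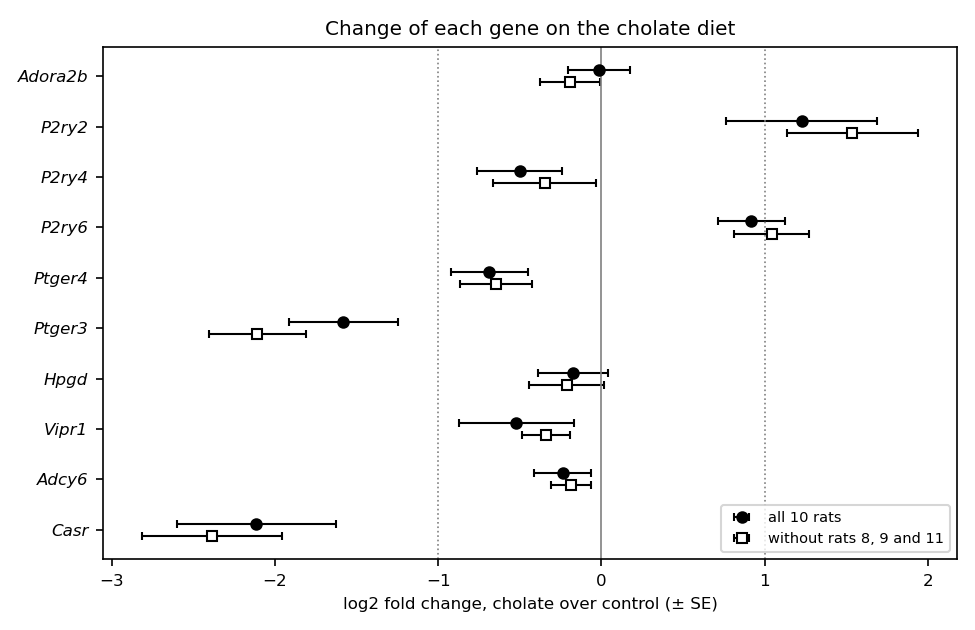
Log2 fold change of cholate over control with its standard error (x axis) for each gene, with all 10 rats (filled circles) and without control rat 9 and cholate rats 8 and 11 (open squares). Dotted lines mark a fold change of 2. Ptger3 moves from -1.58 to -2.11 and Casr from -2.11 to -2.39 without these rats, and no gene changes sign.

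Other genes of the same pathways were taken from lists and are given by counts. Of 30 purinergic receptors and nucleotide-handling genes, 17 were tested and 1 was called, lower (2.12% of all genes were called lower). At an adjusted p under 0.05, 5 of the 17 fell and none rose, against 7.28% and 6.48% of all genes, and the median log2 fold change was -0.27. The called gene was P2rx2, an ATP-gated ion channel, with 2.63, 2.61, 2.42, 2.30 and 5.01 CPM in control rats 1, 2, 5, 6 and 9. It had 1 to 10 reads in each cholate library, and a log2 fold change of -3.83 (SE 0.68, adjusted p = 0.00536). P2rx2 entered the test through its control libraries, with 65 to 92 reads each, so its entry and its lower level on cholate are not independent. That call was lost on leaving out control rat 1, 2, 5 or 6 or cholate rat 3 or 7.

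Of 39 other receptors for peptides, amines and metabolites, 17 were tested and 1 was called, lower (2.12% of all genes were). At 0.05, 3 fell and none rose, against 7.28% and 6.48% of all genes. Their median log2 fold change was -0.68. The called gene was Sstr2, a somatostatin receptor that opposes cyclic AMP and secretion. Its controls had 10.4, 21.1, 8.77, 14.5 and 13.5 CPM and its cholate rats 3.36, 1.6, 3.88, 3.63 and 4.10 CPM, with no overlap. The log2 fold change was -2.05 (SE 0.31, adjusted p = 0.00289), and the call held in each of the 10 fits that left out 1 rat.

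Of 53 G proteins and genes of cyclic AMP and calcium signalling, 45 were tested (median -0.14). The count called was 1, lower, near the 2.12% of all genes called lower. At 0.05, 1 rose and 7 fell, against 6.48% and 7.28% of all genes. The called gene was Akap12, a scaffold for protein kinase A, at 5.02 ± 4.0 CPM in controls and 0.25 ± 0.25 CPM on cholate (log2 fold change -4.10, SE 0.78, adjusted p = 0.00763). Akap12 had 0 reads in cholate rats 8 and 11 and, like P2rx2, entered the test through its control libraries. Its call held only in the fits without control rat 9 or without cholate rat 8 among those leaving out 1 rat. Of 21 prostanoid genes, 12 were tested and none was called, with a median of -0.04. The 1 that passed at 0.05 (13.8% of all genes did) was Ptges3, a cytosolic prostaglandin E synthase. It rose from 21.1 ± 2.40 to 30.0 ± 4.38 CPM (0.50, SE 0.14, adjusted p = 0.0409). On dropping single rats it passed in 3 of 10 fits, those without control rat 9 or cholate rat 3 or 8.

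All 10 genes of the list of secretory channels and the cotransporter were tested, and none was called (median -0.01). The 1 that fell at 0.05 (7.28% of all genes did) was Kcnq1, a basolateral potassium channel. It went from 88.5 ± 4.69 to 61.4 ± 7.51 CPM (-0.53, SE 0.12, adjusted p = 0.0138).

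In bulk RNA, fewer cells of a type and less RNA per cell cannot be told apart. The epithelial label held: Epcam and Cdh1 averaged 2425 and 1261 CPM in controls. For the counts that follow, 1.1% of all genes tested were called higher and 2.12% lower, and 7.28% were lower at 0.05. Of 10 colonocyte markers 3 were called, all higher. The summed level of the 10 was 14402 to 19771 CPM in controls and 22959 to 30696 CPM on cholate. Its largest parts were Krt19 and Krt8, neither called (adjusted p = 0.176 and 0.0543, edgeR quasi-likelihood test). Those called were Krt20, Car1 and Car4. Epcam and Cdh1, also in this list, averaged 2267 and 1128 CPM on cholate (log2 fold changes -0.10 and -0.16). The 7 tuft cell markers summed to 149.1 to 293.5 and 81.2 to 183.9 CPM, with none called and 1 lower at 0.05. The 7 enteroendocrine markers summed to 207.0 to 275.6 and 281.2 to 525.5 CPM, with 2 called, both higher, and Insl5 at 0. Those 2 were the hormone genes Gcg (67.2 to 177.4 CPM) and Pyy (42.4 to 128.6 CPM). Chga, Chgb, Tph1 and Neurod1 did not pass at 0.05, with log2 fold changes of -0.08, 0.02, 0.23 and -0.02. The 9 neuron and glia markers summed to 0.93 to 1.48 and 0.31 to 1.15 CPM, with Nos1 at 0 in all libraries. The 7 smooth muscle markers summed to 118.1 to 207.8 and 92.1 to 229.7 CPM, most of it Mylk, which averaged 117.3 and 155.1 CPM (log2 fold change 0.40, adjusted p = 0.502). Of these Des was called lower (38.2 to 4.50 CPM) and Myh11 fell at 0.05 (10.6 to 5.83 CPM), while Acta2 had 2 reads over the controls and 17 over the cholate rats. The 7 fibroblast markers summed to 1.75 to 3.79 and 0.38 to 3.27 CPM, with Col1a2 at 0. Col1a1, the 1 fibroblast marker tested, fell from 2.95 to 0.47 CPM (-2.56, adjusted p = 0.01004). The 6 endothelial and blood markers summed to 20.3 to 47.5 and 10.1 to 23.9 CPM, with 1 called lower. The 9 macrophage and dendritic cell markers, most of whose sum was Cd14, had 218.1 to 288.9 and 225.1 to 289.1 CPM. The choice of single markers named here, other than those at 0, was made with their values in view. The part of these cell populations in the changes of P2ry6, Ptger3 and Casr was not tested.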

How the data were processed

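RNA of distal colon epithelial cells was sequenced from 5 control and 5 cholate rats as strand-specific poly(A) libraries, per the labels' protocols. Reads were demultiplexed with bcl2fastq 1.8.4, aligned to rn6 with BWA 0.7.12-r1039 and scaled with edgeR 3.16.2, per the submitters' processing notes. The sources used here name neither the counting program nor whether it used strand. The table deposited by the authors gives each gene's raw count and a normalized signal (CPM on the TMM library size), which served only to read their scaling factors (0.868 to 1.11, against 0.860 to 1.10 here). The deposited length column, in bases, equals the merged coding sequence of the deposited annotation for all 23422 genes.

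Raw counts were tested in R 4.3.3 with edgeR 4.0.16: filterByExpr by diet (12385 genes kept), TMM, and the robust quasi-likelihood F test with diet as the only term, adjusted by Benjamini-Hochberg. All 10 members passed the filter. Standard errors were approximated by dividing the size of the log2 fold change by the root of F. The fit's common dispersion corresponds to a biological variation of 34.3%, and its steps were tested on simulated data. A count of 0 allows up to 3 counts, or 0.0616 to 0.228 CPM, which covers counting error only. P-values set the difference between diets against the spread between these rats.

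Alternatives were other scalings, filters and tools (DESeq2 1.42.0, limma 3.58.1) and leaving out each rat. The members and lists were chosen with earlier results of these data known. The named pathway genes are all called members of each list, or, for a list with no call, the gene ranked first by adjusted p. P2ry1 was named as well, as a P2Y receptor left out of the shares.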

Additional observations from a re-analysis of the deposited data

Results flagged for a closer look

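The P2ry4 level of cholate rat 3, 2.18 CPM from 59 reads, was far above those of the other cholate rats, which had 1.23 to 1.48 CPM. The gap to its neighbour was 0.739 of the group's range, above the limit of 0.71 for 5 samples. It was the 1 group of 28 checked that passed this limit, and chance passes about 1 in 20 groups. The same rat had the highest P2ry2 and P2ry6 levels, 5.58 and 13.6 CPM. Its P2ry4 share of the summed reads per coding kilobase of P2ry2, P2ry4 and P2ry6 was 9.69%. That lay inside the range of the other cholate rats, 8.21% to 10.2%.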

How the results depend on the processing

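The number of all genes called was 398, and 788 by DESeq2, 1157 by limma-voom with quality weights, 840 without control rat 9 and cholate rats 8 and 11, and 1003 without control rat 5 as well. It ran from 168 to 450 on leaving out 1 rat (192, 168 and 200 when control rat 1, 2 or 6 was dropped, 207 and 221 when cholate rat 4 or 7 was). Of the 10 members, 0 were called, where 3.21% of all genes were. The count was 1 with scaling by library size alone (474 of 12385 genes) and 1 by limma-voom (483 of 12385). It was 2 by DESeq2 (788 of 12385) and 3 by limma-voom with quality weights (1157 of 12385). Without the 3 rats it was 2 (6.66% of all genes), and without the 4 it was 3 (7.93%). It was 0 to 2 on leaving out 1 rat, where 168 to 450 genes were called. At an adjusted p under 0.05, 3 members passed, against 13.8% of all genes. There were 5 by DESeq2 (21.6% of all genes) and 5 by limma-voom with quality weights (37.2%). Without the 4 rats there were 6 (38.5%), as P2ry2, Ptger4 and Vipr1 joined. On leaving out 1 rat there were 3 to 4 (7.77% to 17% of all genes). P2ry6, Ptger3 and Casr passed at 0.05 in all 20 alternative fits, with log2 fold changes of 0.83 to 1.21, -2.15 to -1.38 and -2.62 to -1.75. Adora2b changed sign without control rat 1 (0.04) or 6 (0.03) or cholate rat 3 (0.10) or 4 (0.04), with -0.14 to 0.10 over single rats left out, and no other member did. The causes were not tested. No paired analysis was possible because each rat number occurs under 1 diet. The low counts of P2ry2, P2ry4 and Casr limit what these libraries can show of them.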

Other observations

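The genes given here were chosen after their values were seen. Of 11 phosphodiesterases in the list of cyclic AMP and calcium signalling genes, which break down cyclic nucleotides, 10 were tested. At an adjusted p under 0.05 (edgeR quasi-likelihood test, 13.8% of all genes), 3 fell, 1 rose and 6 did not pass (Pde3a, Pde3b, Pde4b, Pde4d, Pde7a and Pde7b). Pde4a fell from 15.7 ± 2.61 to 7.87 ± 1.77 CPM (log2 fold change -0.996, adjusted p = 0.00789), Pde8a from 63.1 ± 5.34 to 44.2 ± 3.75 CPM (-0.51, adjusted p = 0.0142) and Pde8b from 62.4 ± 19.7 to 29.6 ± 8.83 CPM (-1.07, adjusted p = 0.0241). Pde4c went the other way, from 91.6 ± 13.2 to 152.3 ± 52.6 CPM (0.73, adjusted p = 0.0452). The adenylate cyclase Adcy1 fell from 5.69 ± 2.19 to 1.17 ± 0.85 CPM (-2.24, adjusted p = 0.0147), whereas Adcy9 had 13.1 ± 3.70 and 10.2 ± 3.05 CPM (-0.35, adjusted p = 0.43).

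Nt5e, the ecto-enzyme that makes adenosine from AMP at the cell surface, fell from 5.81 ± 3.45 to 1.07 ± 0.57 CPM without overlap between diets (-2.40, adjusted p = 0.0124). The muscarinic receptor Chrm1 fell from 13.96 ± 0.35 to 7.42 ± 1.85 CPM (-0.92, adjusted p = 0.00901), and another muscarinic receptor, Chrm3, had 10.9 ± 3.59 and 7.0 ± 1.34 CPM (-0.64, adjusted p = 0.123). Of these genes none was called by the authors' criteria with all rats.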
